A study of Mus musculus with 9 samples.

Results

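The genes described here encode 8 proteins of the contractile actin cytoskeleton: the muscle actins Acta2, Actc1 and Actg2, the actin-binding proteins Tagln, Cnn1 and Cnn2, the tropomyosin Tpm1 and the myosin light chain Myl9. They are 8 of 19938 genes measured on 9 microarrays of mouse pluripotent stem cells. Members were picked by gene symbol, each from its single probe set, but they were chosen with their measured levels in the 3 culture groups already known, so those levels and differences are given as a description, with no test. Each group had 3 arrays. Epiblast stem cells (EpiSCs, the primed state that resembles the epiblast after implantation) of strain CD1 were kept in CHIR99021 with XAV939 (CHIR/XAV) or in FGF2 with activin. Embryonic stem cells (ESCs, the naive state) of strain 129 were kept in 2i. CHIR99021 inhibits the kinase GSK3, XAV939 inhibits tankyrase, and 2i usually means CHIR99021 with the MEK inhibitor PD0325901. The labels list CHIR99021 at 3 µM, PD0325901 at 1 µM, XAV939 at 2 µM and FGF2 and activin at 10 ng/ml each for all samples together, and give 10% fetal bovine serum for every group. Strain goes with cell state, so the effects of strain and state cannot be told apart in either comparison with ESCs.

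In smooth muscle, filaments of muscle actin slide past myosin II when the regulatory light chain of myosin is phosphorylated, while tropomyosin, calponin and transgelin bind along the actin filament. Fibroblasts and other cells that pull on their surroundings make many of the same proteins. Transcription of these genes is classically driven by SRF, a factor that binds a short AT-rich element called the CArG box together with its cofactors of the myocardin and MRTF families. MRTFs are held back by actin monomers and released when actin polymerises, and TGF-beta family ligands raise the same genes in many mesenchymal cells.

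Promoter sequences were at hand for 6 of the 8 genes (RefSeq, GRCm38.p6, from 250 bases before to 50 bases after an annotated start site). The CArG box was searched by its strict pattern, CC, then 6 bases of A or T, then GG, which reads the same on both strands. Variants with another base were not searched, so a window without a match may still hold one. The strict pattern was found in 3 of the 6 windows, those of Actc1, Myl9 and Cnn2, against 1.63% of 32851 promoter windows of the same length. Counted from the start site, it lay at bases -47 to -38 in Actc1, -161 to -152 in Myl9 and -56 to -47 in Cnn2. The core of the TEAD-binding element, CATTCC, searched on both strands, was in the windows of Acta2 and Tpm1 and in 14.7% of all windows, and TATAAA, also on both strands, was in that of Actc1, past its start site, and in 13.6% of all windows. These matches describe letters and not bound sites. Cnn1 had none of the 3 patterns and was the one member with its highest mean in CHIR/XAV EpiSCs, and a link between patterns and levels was not tested. The stretches before the first annotated transcript are printed for the 3 genes with a CArG box, in capitals, and for Cnn1.
Actc1 (chr2:114052876-114053125, minus strand): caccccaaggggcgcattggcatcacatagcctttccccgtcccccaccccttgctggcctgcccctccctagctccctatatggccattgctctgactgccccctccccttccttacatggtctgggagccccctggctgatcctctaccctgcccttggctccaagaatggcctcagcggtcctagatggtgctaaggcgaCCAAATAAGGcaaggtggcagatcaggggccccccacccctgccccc
Myl9 (chr2:156775214-156775407, plus strand): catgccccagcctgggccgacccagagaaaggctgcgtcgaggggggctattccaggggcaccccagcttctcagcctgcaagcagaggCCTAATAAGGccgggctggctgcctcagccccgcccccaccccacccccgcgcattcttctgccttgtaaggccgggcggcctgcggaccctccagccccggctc
Cnn2 (chr10:79988350-79988599, plus strand): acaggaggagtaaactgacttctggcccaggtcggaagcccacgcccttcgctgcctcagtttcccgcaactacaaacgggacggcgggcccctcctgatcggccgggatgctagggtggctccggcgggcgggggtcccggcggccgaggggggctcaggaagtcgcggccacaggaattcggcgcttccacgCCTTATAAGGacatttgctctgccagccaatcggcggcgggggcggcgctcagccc
Cnn1 (chr9:22099003-22099220, plus strand): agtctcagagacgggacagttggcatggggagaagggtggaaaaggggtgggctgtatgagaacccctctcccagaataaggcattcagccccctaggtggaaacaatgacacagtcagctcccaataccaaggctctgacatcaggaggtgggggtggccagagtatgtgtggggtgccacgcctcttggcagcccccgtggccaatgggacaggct

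The arrays carried the marks of the labelled cell states. Pou5f1 was high in all groups (11.59 in CHIR/XAV EpiSCs, 11.68 in FGF2/activin EpiSCs and 11.33 in ESCs, mean log2 expression), the primed marker Fgf5 was at 8.86 and 8.88 in the EpiSC groups against 5.25 in ESCs, and the naive marker Esrrb was at 4.93 and 4.72 in the EpiSC groups against 10.08 in ESCs. The EpiSC groups differed in sex-linked genes: Xist stood at 9.12 in CHIR/XAV and 4.38 in FGF2/activin EpiSCs, and the Y-linked Eif2s3y at 4.41 and 9.61 in the same order. ESCs had 4.59 for Xist and 9.15 for Eif2s3y. The cells of the EpiSC groups thus differed in more than their medium, and line and medium cannot be told apart for any difference between them. In RNA from whole cultures, more RNA per cell and more cells that express a gene cannot be told apart either. Whether a group's 3 arrays stem from independent cultures is not stated, and every p-value rests on array-to-array spread that could be technical only.

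Acta2, the smooth muscle alpha-actin that also marks myofibroblasts, was highest in FGF2/activin EpiSCs. On the log2 scale of the arrays it read 5.91, 6.02 and 5.96 in CHIR/XAV EpiSCs, 9.53, 9.43 and 9.27 in FGF2/activin EpiSCs, and 7.01, 6.88 and 7.06 in ESCs. The groups did not overlap, and CHIR/XAV EpiSCs were the lowest of the 3. The mean of CHIR/XAV EpiSCs was below that of FGF2/activin EpiSCs by 3.45 log2 units (a difference of -3.45, or 10.9-fold) and below that of ESCs by 2.03-fold (-1.02), whereas FGF2/activin EpiSCs were above ESCs by 2.43, or 5.38-fold. Acta2 was the only member of the 8 that lay on opposite sides of the ESC level in the EpiSC cultures. Of the 19938 genes, 7 had a larger negative difference between CHIR/XAV and FGF2/activin EpiSCs.

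Actc1, the alpha-actin of the heart and of embryonic striated muscle, showed the widest range of the 8. It read 6.97, 6.92 and 6.63 in CHIR/XAV EpiSCs, 10.43, 10.41 and 10.35 in FGF2/activin EpiSCs, and 6.28, 6.12 and 6.62 in ESCs. FGF2/activin EpiSCs stood far apart, and the lowest CHIR/XAV array and the highest ESC array were almost equal. The difference of FGF2/activin EpiSCs from ESCs was 4.06 (16.6-fold) and that of CHIR/XAV from FGF2/activin EpiSCs was -3.56 (11.8-fold), while CHIR/XAV EpiSCs lay 0.50 above ESCs, with SDs of 0.18 in CHIR/XAV EpiSCs and 0.26 in ESCs. Actg2, the smooth muscle gamma-actin of the gut wall, was dim. It read 5.08, 5.08 and 4.94 in CHIR/XAV EpiSCs, 5.47, 5.52 and 5.51 in FGF2/activin EpiSCs, and 5.23, 4.88 and 4.81 in ESCs. FGF2/activin EpiSCs were above both other groups, by 0.52 over ESCs, and CHIR/XAV EpiSCs and ESCs overlapped. The mean level that divides the dimmest 40% of genes from the rest was 5.28, so Actg2 lay below that level in CHIR/XAV EpiSCs and ESCs, where a level cannot be told from background.

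**Figure D1:**
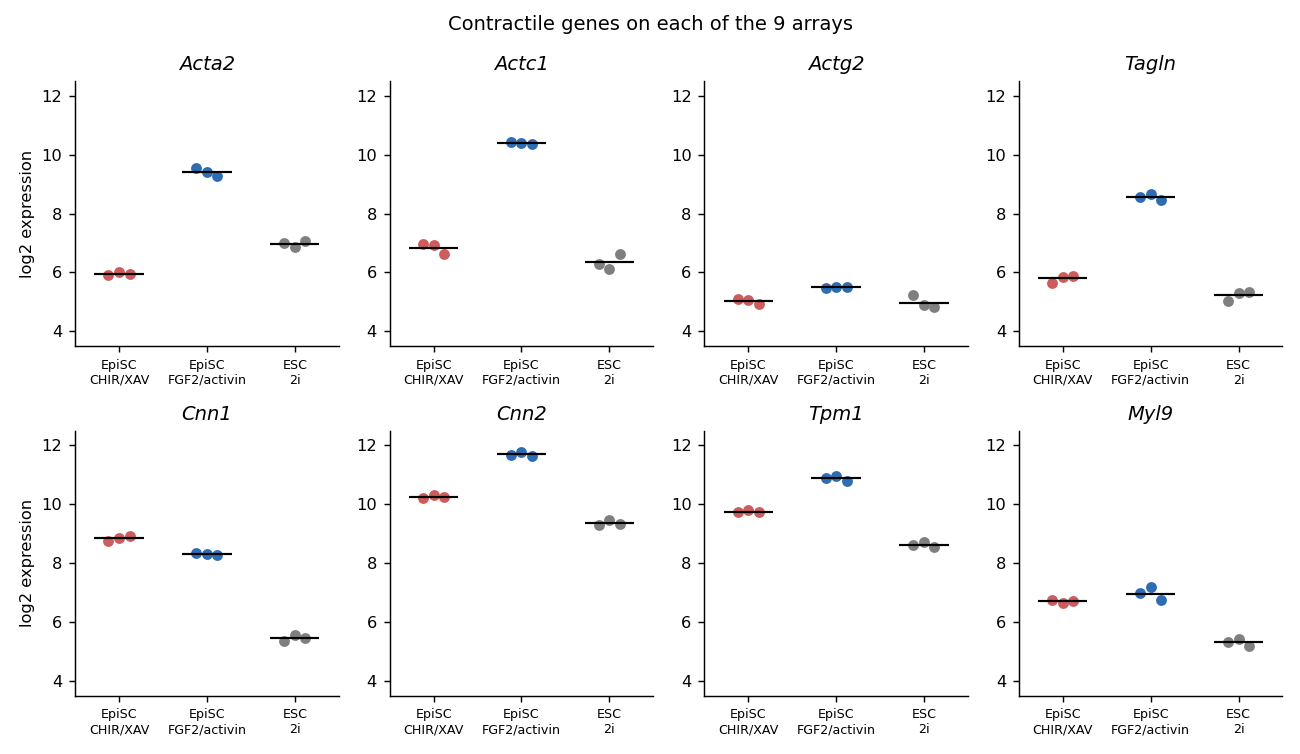
Log2 expression (vertical axis) of the 8 contractile genes in CHIR/XAV EpiSCs, FGF2/activin EpiSCs and ESCs in 2i, with 1 point per array and a line at each group's mean (n = 3). Acta2, Actc1 and Tagln stand out in FGF2/activin EpiSCs (means of 9.41, 10.40 and 8.57), while Cnn1 is high in both EpiSC groups (8.85 and 8.31) and low in ESCs (5.45).

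Tagln encodes transgelin (SM22-alpha), a small protein that bundles actin filaments and is an early marker of smooth muscle. It read 5.66, 5.85 and 5.89 in CHIR/XAV EpiSCs, 8.57, 8.68 and 8.46 in FGF2/activin EpiSCs, and 5.04, 5.29 and 5.34 in ESCs. The groups did not overlap, with FGF2/activin EpiSCs 10.2-fold (3.34) above ESCs, and CHIR/XAV EpiSCs 1.49-fold (0.57) above ESCs and 6.84-fold below FGF2/activin EpiSCs (-2.77). In ESCs its mean of 5.23 fell under the 5.28 level, so a fold against ESCs may understate the difference.

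The calponins, which bind actin and damp the ATPase of myosin, went separate ways. Cnn1, the smooth muscle form, read 8.75, 8.86 and 8.94 in CHIR/XAV EpiSCs, 8.36, 8.31 and 8.27 in FGF2/activin EpiSCs, and 5.36, 5.56 and 5.45 in ESCs. It was the one member whose CHIR/XAV arrays all lay above the FGF2/activin arrays, by a mean of 0.54 (1.45-fold). Both EpiSC groups were far above ESCs, by 3.40 (10.5-fold) in CHIR/XAV and 2.86 (7.26-fold) in FGF2/activin EpiSCs. The ESC mean of Cnn1, 5.45, lay near the 5.28 level, so these folds may understate the difference. Cnn2, the form found in many non-muscle cells, read 10.20, 10.30 and 10.26 in CHIR/XAV EpiSCs, 11.69, 11.76 and 11.65 in FGF2/activin EpiSCs, and 9.31, 9.46 and 9.33 in ESCs. Its groups formed 3 separate steps with FGF2/activin EpiSCs on top, 2.34 above ESCs, and CHIR/XAV EpiSCs between, 1.45 below FGF2/activin EpiSCs (-1.45) and 0.89 above ESCs.

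Tpm1, a tropomyosin that lies along actin filaments in muscle and non-muscle cells, also formed 3 separate steps. It read 9.74, 9.79 and 9.73 in CHIR/XAV EpiSCs, 10.91, 10.96 and 10.79 in FGF2/activin EpiSCs, and 8.62, 8.71 and 8.55 in ESCs. Its differences were 1.13 for CHIR/XAV EpiSCs against ESCs, 2.26 for FGF2/activin EpiSCs against ESCs and -1.14 between the EpiSC groups, CHIR/XAV minus FGF2/activin. Many transcripts of Tpm1 share 1 probe set here, so its muscle and non-muscle isoforms were not separated. Myl9, the regulatory light chain of smooth muscle and non-muscle myosin II, read 6.76, 6.64 and 6.71 in CHIR/XAV EpiSCs, 6.98, 7.19 and 6.75 in FGF2/activin EpiSCs, and 5.32, 5.43 and 5.20 in ESCs. Both EpiSC groups were above ESCs, by 1.39 in CHIR/XAV and 1.66 in FGF2/activin EpiSCs. The EpiSC groups overlapped, with a difference of -0.27 that rests on an SD of 0.06 in CHIR/XAV and 0.22 in FGF2/activin EpiSCs.

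Taking the 8 genes together, every member was higher on all FGF2/activin arrays than on all ESC arrays (8 of 8, median difference 2.38). Over all genes 29.6% were higher without overlap in that comparison, 36.9% were lower, and the median difference was -0.08. In CHIR/XAV EpiSCs against ESCs 6 of the 8 were higher without overlap, Acta2 was lower and Actg2 overlapped, with a median of 0.73 against -0.03 over all genes, of which 27.1% were higher and 26.1% lower without overlap. In CHIR/XAV against FGF2/activin EpiSCs 6 of the 8 were lower, Cnn1 was higher and Myl9 overlapped, with a median of -1.29 against 0.05 over all genes, of which 27.4% were higher and 24.6% lower without overlap. Because the members were chosen on these levels, the counts say nothing beyond the description. The comparisons share groups, so their values are set side by side and not correlated.

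**Figure D2:**
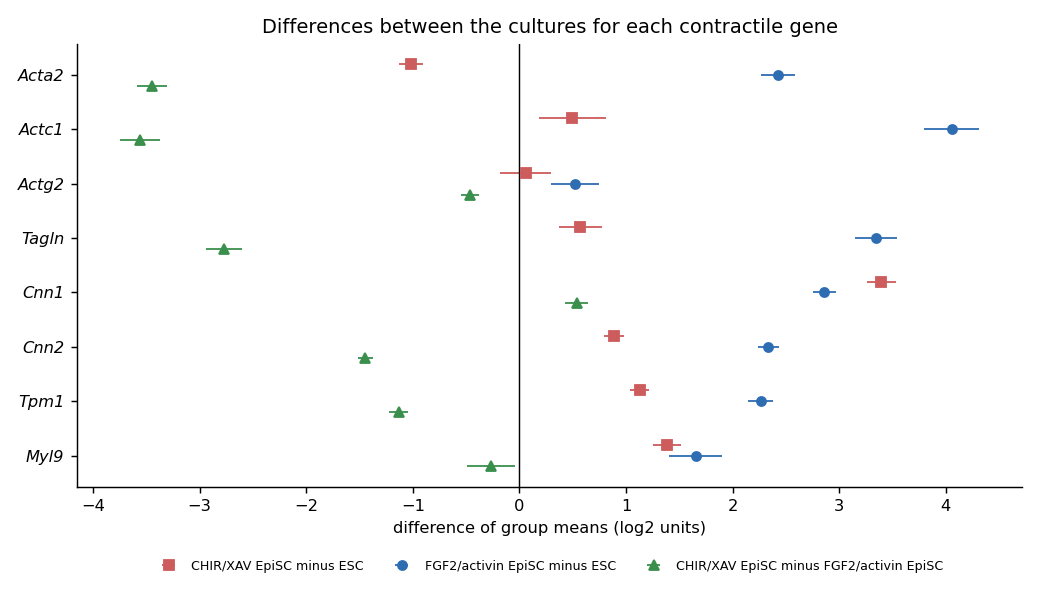
Differences of group means in log2 units (horizontal axis) for each contractile gene, with 1 marker per comparison and bars of the square root of the summed variances of both groups (n = 3 arrays each). Acta2 lies at -1.02 in CHIR/XAV EpiSCs and 2.43 in FGF2/activin EpiSCs against ESCs, and Cnn1 is the member with a positive difference, 0.54, between CHIR/XAV and FGF2/activin EpiSCs.

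Among themselves the members formed patterns of different shape. The likeness of 2 genes was measured as the root mean square difference of their log2 values over the 9 arrays after each gene's mean was subtracted. Cnn2 and Tpm1 were the closest pair, at 0.14, followed by Myl9 and Tpm1 at 0.37 and Tagln and Actc1 at 0.40. Acta2 and Cnn1 were the farthest apart, at 1.99, and the calponins Cnn1 and Cnn2 differed by 1.08. The 8 genes lie on 5 chromosomes by the RefSeq table: Tagln, Cnn1 and Tpm1 on chromosome 9, Actc1 and Myl9 on chromosome 2, Actg2 on chromosome 6, Cnn2 on chromosome 10 and Acta2 on chromosome 19. The nearest measured gene on either side of each member, 16 genes in all, was looked up by position after the members' values were seen. Between CHIR/XAV and FGF2/activin EpiSCs 5 of the 16 rose and 5 fell (limma, adjusted p under 0.05), with differences from -0.89 to 0.39, where 20.5% of all genes rose and 21.1% fell. In FGF2/activin EpiSCs against ESCs 9 rose and 3 fell, where 27.8% and 33.5% of all genes did, and Sidt2, beside Tagln, rose by 1.01 (adjusted p = 1.25e-08, limma). In CHIR/XAV EpiSCs against ESCs 6 rose and 3 fell, where 24.7% and 22.1% of all genes did. Beside Acta2, the death receptor gene Fas was at 5.32 in CHIR/XAV and 4.94 in FGF2/activin EpiSCs, and Stambpl1 at 6.43 and 6.07.

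The genes most like Acta2 over the 9 arrays by the same measure were Sema3c (0.12), a secreted semaphorin gene, Map3k15 (0.34), Nudt12 (0.35), Tgfb2 (0.38), a TGF-beta ligand gene, and Crct1 (0.40). Sema3c averaged 4.96 in CHIR/XAV EpiSCs, 8.32 in FGF2/activin EpiSCs and 6.07 in ESCs. Like Acta2 it was lowest in CHIR/XAV EpiSCs and highest in FGF2/activin EpiSCs. The genes most like Tagln were Cav1 (0.11), which encodes the caveola coat protein caveolin 1, Trim67 (0.12), Ano3 (0.13), Akr1c14 (0.15) and Serpinb9 (0.20). Cav1 averaged 4.88 in CHIR/XAV EpiSCs, 7.89 in FGF2/activin EpiSCs and 4.35 in ESCs. The genes most like Actc1 were the Y-linked demethylase gene Kdm5d (0.24), Cav1 (0.32), Ano3 (0.33), Tagln (0.40) and Cpe (0.44). Kdm5d averaged 4.73 in CHIR/XAV EpiSCs, 8.57 in FGF2/activin EpiSCs and 4.75 in ESCs, so a pattern this close to that of Actc1 also occurred in a gene of the Y chromosome. With 3 tight groups of arrays such likeness compares 3 means.

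Other genes of the contractile and actin machinery were taken from 6 lists, of whose 152 genes 146 had a probe set with a single symbol, and were tested in the fit across all genes. The lists, like the members, were chosen with earlier results of these data known, so their counts are no independent check on the members. In FGF2/activin EpiSCs against ESCs 79 of the 146 rose (54.1%) and 34 fell (23.3%), where 27.8% of all genes rose and 33.5% fell, a balance over all genes that turned under median centring (6143 higher and 5006 lower) and quantile normalization (5309 and 5057). In CHIR/XAV EpiSCs against ESCs 59 rose (40.4%) and 40 fell (27.4%), where 24.7% of all genes rose and 22.1% fell. Between CHIR/XAV and FGF2/activin EpiSCs 17 rose (11.6%) and 75 fell (51.4%), where 20.5% of all genes rose and 21.1% fell. Called and changed at least 2-fold, 25 of the 146 fell (17.1%) and 2 rose between the EpiSC groups, against 2.5% and 1.62% of all genes. The same counts were 41 higher and 8 lower in FGF2/activin EpiSCs against ESCs (6.66% and 3.45% of all genes), and 16 higher and 6 lower in CHIR/XAV EpiSCs against ESCs (5.03% and 3.3% of all genes). Calls were made by limma at a Benjamini-Hochberg adjusted p under 0.05.

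**Figure D3:**
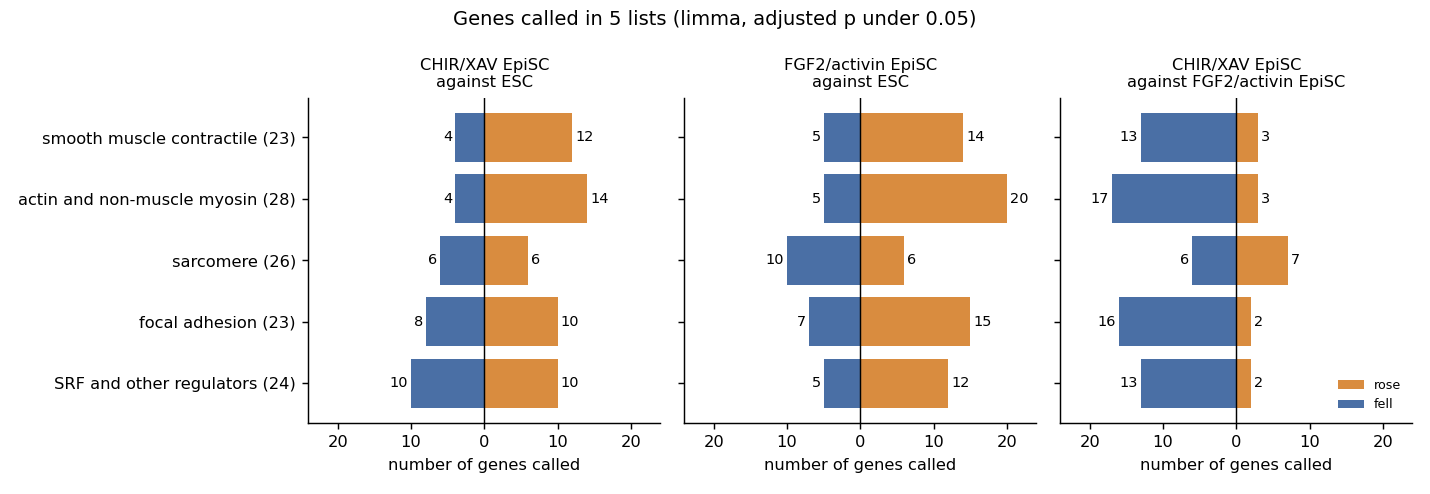
Number of genes called in each of 5 gene lists (limma, adjusted p under 0.05), rises to the right and falls to the left of 0, for the 3 comparisons, with the number of measured genes in brackets. In CHIR/XAV against FGF2/activin EpiSCs falls outnumber rises in 4 lists (13 against 3 in smooth muscle contractile genes), whereas the sarcomere list has 6 falls and 7 rises.

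More smooth muscle contractile and regulatory genes rose than fell in either EpiSC group against ESCs. Of 23 measured, 14 rose (60.9%) and 5 fell (21.7%) in FGF2/activin EpiSCs against ESCs (median 0.74), where 27.8% and 33.5% of all genes did. In CHIR/XAV EpiSCs against ESCs 12 rose (52.2%) and 4 fell (17.4%, median 0.25), where 24.7% and 22.1% of all genes did. In CHIR/XAV against FGF2/activin EpiSCs 3 rose (13%) and 13 fell (56.5%, median -0.43), where 20.5% and 21.1% of all genes did. Cald1, which encodes the actin- and myosin-binding caldesmon, averaged 8.45 ± 0.13 in CHIR/XAV EpiSCs, 10.61 ± 0.07 in FGF2/activin EpiSCs and 7.02 ± 0.05 in ESCs (SD, n = 3). Its difference between FGF2/activin EpiSCs and ESCs was 3.59 (SE 0.08, adjusted p = 5.96e-14, limma) and that between CHIR/XAV and FGF2/activin EpiSCs was -2.16 (adjusted p = 4.67e-11). The tropomyosin Tpm2 rose by 1.44 in CHIR/XAV and by 2.67 in FGF2/activin EpiSCs against ESCs, and Tpm4 fell by 1.14 in CHIR/XAV against FGF2/activin EpiSCs. Pdlim7, a scaffold gene of actin bundles, rose by 2.09 in FGF2/activin EpiSCs against ESCs. Called and changed at least 2-fold, 9 of the 23 rose (39.1%) and 3 fell (13%) in that comparison, where 6.66% and 3.45% of all genes did. The 3 that fell were Myl12b (-1.44), Csrp2 (-1.13) and Tagln3 (-1.10). Des, the muscle intermediate filament desmin, averaged 7.07 in CHIR/XAV and 7.05 in FGF2/activin EpiSCs against 5.62 in ESCs, and between the EpiSC groups its difference was 0.02 (adjusted p = 0.825, limma). Mylk, the kinase that phosphorylates the myosin light chain, was dim, at 5.30 in CHIR/XAV EpiSCs, 5.12 in FGF2/activin EpiSCs and 5.30 in ESCs, and was called in none of the 3 comparisons (limma, adjusted p = 0.987, 0.0983 and 0.124 for CHIR/XAV against ESCs, FGF2/activin against ESCs and CHIR/XAV against FGF2/activin).

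The next list held 28 measured genes of cytoplasmic actin, non-muscle myosin and actin-binding proteins. In FGF2/activin EpiSCs against ESCs 20 rose (71.4%) and 5 fell (17.9%), where 27.8% and 33.5% of all genes did. In CHIR/XAV EpiSCs against ESCs 14 rose (50%) and 4 fell (14.3%), where 24.7% and 22.1% of all genes did. In CHIR/XAV against FGF2/activin EpiSCs 3 rose (10.7%) and 17 fell (60.7%), where 20.5% and 21.1% of all genes did. Beta-actin (Actb) differed little, at 13.57 in CHIR/XAV EpiSCs, 13.72 in FGF2/activin EpiSCs and 13.50 in ESCs. Flnc, the muscle-type filamin that crosslinks actin, averaged 6.74 ± 0.23 in CHIR/XAV EpiSCs, 9.37 ± 0.07 in FGF2/activin EpiSCs and 5.53 ± 0.01 in ESCs (SD, n = 3), and was lower by 2.64 in CHIR/XAV than in FGF2/activin EpiSCs (-2.64, SE 0.10, adjusted p = 6.14e-11, limma). Tmsb4x, an X-linked gene that encodes the actin monomer-binding thymosin beta-4, rose by 2.60 in FGF2/activin EpiSCs against ESCs and differed by 0.16 in CHIR/XAV EpiSCs (adjusted p = 0.122). The actin scaffold gene Palld rose in both EpiSC groups, by 1.89 in CHIR/XAV and 2.85 in FGF2/activin EpiSCs, as did the capping protein gene Capg, by 1.68 and 2.12. The heavy chain of non-muscle myosin IIA, Myh9, averaged 9.20 in CHIR/XAV EpiSCs, 10.23 in FGF2/activin EpiSCs and 8.24 in ESCs, each step called. Lima1, an actin-bundling gene, ran against the list and was higher by 1.32 in CHIR/XAV than in FGF2/activin EpiSCs. Against ESCs it fell in both EpiSC groups, with differences of -1.09 in CHIR/XAV and -2.42 in FGF2/activin EpiSCs. Lima1 lies in the chromosome 15 stretch from Amigo2 to Atf1, where 50 of 75 genes had means above the 5.28 level. Their median difference was 0.91 between CHIR/XAV and FGF2/activin EpiSCs, 0.95 between CHIR/XAV EpiSCs and ESCs and 0.0 between FGF2/activin EpiSCs and ESCs. The part of this stretch in the Lima1 differences was not tested.

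Called by adjusted p alone, the counts of striated muscle genes lay near the shares over all genes, but 2-fold counts did not in every comparison. Of 26 sarcomere genes 6 rose (23.1%) and 10 fell (38.5%) in FGF2/activin EpiSCs against ESCs, where 27.8% and 33.5% of all genes did. In CHIR/XAV EpiSCs against ESCs 6 rose and 6 fell (23.1% each, against 24.7% and 22.1% of all genes), and in CHIR/XAV against FGF2/activin EpiSCs 7 rose and 6 fell (26.9% and 23.1%, against 20.5% and 21.1%). The medians were -0.12, -0.08 and 0.14 in that order of comparisons. Called and changed at least 2-fold, 4 rose (15.4%) and 1 fell in FGF2/activin EpiSCs against ESCs, where 6.66% and 3.45% of all genes did. Between CHIR/XAV and FGF2/activin EpiSCs 4 fell (15.4%) and 1 rose at 2-fold, where 2.5% and 1.62% of all genes did. Without the dimmest 40% of genes, a filter that drops part of this list, 6 rose and 4 fell in FGF2/activin EpiSCs against ESCs. Of these calls 60% were rises, against 59.6% of the calls over all genes (5176 rose and 3511 fell). The largest rise among the sarcomere genes in FGF2/activin EpiSCs was that of the skeletal alpha-actin Acta1, which read 6.47, 6.47 and 6.32 in CHIR/XAV EpiSCs, 9.15, 9.22 and 9.09 in FGF2/activin EpiSCs, and 6.46, 6.63 and 6.53 in ESCs. It rose by 2.61 in FGF2/activin EpiSCs against ESCs (SE 0.07, adjusted p = 8.04e-13, limma). CHIR/XAV EpiSCs were not called against ESCs (-0.12, adjusted p = 0.206). The 4 muscle actin genes encode nearly the same protein, and whether their probe sets share signal was not tested. Myl3, a slow-muscle and ventricular myosin light chain, rose by 1.74 in FGF2/activin EpiSCs against ESCs, and the atrial light chain Myl7 fell by 1.33 in the same comparison. The alpha-actinin Actn3 was higher in CHIR/XAV EpiSCs than in FGF2/activin EpiSCs by 1.34 (adjusted p = 2.33e-08, limma), and Actn2 was higher than in ESCs by 0.95.

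Focal adhesion proteins anchor actin bundles to integrins. Of 23 genes measured, 15 rose (65.2%) and 7 fell (30.4%) in FGF2/activin EpiSCs against ESCs, where 27.8% and 33.5% of all genes did. In CHIR/XAV EpiSCs against ESCs 10 rose (43.5%) and 8 fell (34.8%), where 24.7% and 22.1% of all genes did. In CHIR/XAV against FGF2/activin EpiSCs 2 rose (8.7%) and 16 fell (69.6%), where 20.5% and 21.1% of all genes did. Lpp, a zyxin-family gene, averaged 9.75 ± 0.21 in CHIR/XAV EpiSCs, 11.86 ± 0.03 in FGF2/activin EpiSCs and 7.68 ± 0.09 in ESCs (SD, n = 3), with a difference of 4.18 between FGF2/activin EpiSCs and ESCs (SE 0.09, adjusted p = 9.86e-14, limma). Parva, an integrin-linked actin-binding protein gene, rose by 3.39 in FGF2/activin and 1.55 in CHIR/XAV EpiSCs against ESCs. Zyx itself rose by 1.92 in CHIR/XAV and 2.22 in FGF2/activin EpiSCs. Tgfb1i1 (Hic-5), a paxillin relative of smooth muscle, fell by 2.03 in CHIR/XAV against FGF2/activin EpiSCs and did not pass the test against ESCs (0.16, adjusted p = 0.131). Enah, an actin-elongation gene, fell against ESCs by 1.64 in CHIR/XAV and by 1.49 in FGF2/activin EpiSCs. Between the EpiSC groups Enah did not pass the test (adjusted p = 0.139, limma).

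The regulators of smooth muscle genes were evenly split only in CHIR/XAV EpiSCs against ESCs. Of 24 measured, 12 rose (50%) and 5 fell (20.8%) in FGF2/activin EpiSCs against ESCs, where 27.8% and 33.5% of all genes did. In CHIR/XAV EpiSCs against ESCs 10 rose and 10 fell (41.7% each), where 24.7% and 22.1% of all genes did. In CHIR/XAV against FGF2/activin EpiSCs 2 rose (8.33%) and 13 fell (54.2%), where 20.5% and 21.1% of all genes did. Srf averaged 9.0 ± 0.03 in CHIR/XAV EpiSCs, 9.47 ± 0.06 in FGF2/activin EpiSCs and 8.08 ± 0.03 in ESCs (SD, n = 3), in the order of Cnn2 and Tpm1, and its difference between CHIR/XAV and FGF2/activin EpiSCs was -0.47 (SE 0.06, adjusted p = 3.24e-05, limma). Its cofactor gene Mrtfa rose in both EpiSC groups, by 0.53 in CHIR/XAV and 0.64 in FGF2/activin EpiSCs, and did not pass the test between them (-0.11, adjusted p = 0.269). Mrtfb was lower in CHIR/XAV EpiSCs than in FGF2/activin EpiSCs (-0.60) and in ESCs (-0.62). Myocd, the smooth muscle and cardiac cofactor, averaged 5.54 in CHIR/XAV EpiSCs, 5.05 in FGF2/activin EpiSCs and 5.01 in ESCs, the last 2 below the 5.28 level. It was higher in CHIR/XAV EpiSCs than in FGF2/activin EpiSCs (0.49, adjusted p = 5.67e-05) and than in ESCs (0.53, adjusted p = 1.88e-05, limma). The ETS factor Elk3 rose by 2.10 in FGF2/activin and 1.01 in CHIR/XAV EpiSCs against ESCs.

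Tgfb2, which encodes a TGF-beta ligand, was among the 5 genes most like Acta2. It read 5.31, 5.34 and 5.21 in CHIR/XAV EpiSCs, 8.15, 8.38 and 8.38 in FGF2/activin EpiSCs, and 5.47, 5.41 and 5.41 in ESCs. The difference between CHIR/XAV and FGF2/activin EpiSCs was -3.02 (SE 0.08, adjusted p = 1.51e-12, limma), while that between CHIR/XAV EpiSCs and ESCs did not pass the test (-0.15, adjusted p = 0.132). Tead1, which encodes a factor that binds the CATTCC element, was lower in CHIR/XAV EpiSCs than in FGF2/activin EpiSCs by 1.71 (-1.71) and than in ESCs by 1.43 (-1.43). Tead3 was higher than in ESCs by 1.30 in CHIR/XAV and by 1.46 in FGF2/activin EpiSCs. Between the EpiSC groups Tead3 did not pass the test (-0.16, adjusted p = 0.0698, limma). Klf4, a naive pluripotency factor that represses smooth muscle genes in vascular cells, averaged 5.13 in CHIR/XAV EpiSCs, 5.34 in FGF2/activin EpiSCs and 6.88 in ESCs.

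**Figure D4:**
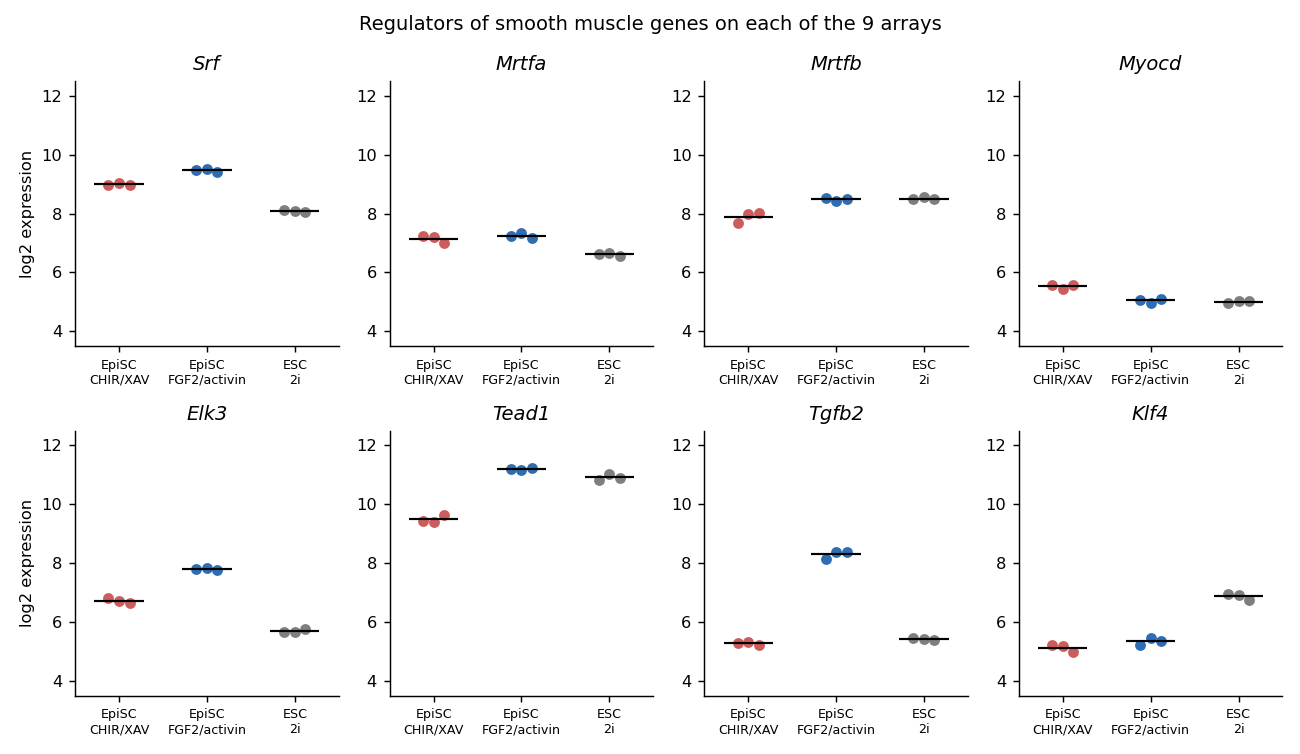
Log2 expression (vertical axis) of 8 regulators of smooth muscle genes in CHIR/XAV EpiSCs, FGF2/activin EpiSCs and ESCs in 2i, with 1 point per array and a line at each group's mean (n = 3). Tgfb2 is high in FGF2/activin EpiSCs alone among the 3 groups (8.30), Srf takes 3 steps (9.0, 9.47 and 8.08), and Myocd is highest in CHIR/XAV EpiSCs (5.54, 5.05 and 5.01).

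Markers of cell types that make the same contractile proteins were examined beside these results. Of 10 smooth muscle markers 4 lay below 5.28 in every group, among them the smooth muscle myosin gene Myh11 (5.09 in CHIR/XAV EpiSCs, 4.95 in FGF2/activin EpiSCs and 5.13 in ESCs), and the brightest in FGF2/activin EpiSCs were Notch3 (8.42) and Smtn (8.06). Their summed linear signal was 723 to 751 in CHIR/XAV EpiSCs, 972 to 1007 in FGF2/activin EpiSCs and 504 to 535 in ESCs. It moved with Acta2 and Tagln in FGF2/activin EpiSCs. In CHIR/XAV EpiSCs it lay above ESCs, as Tagln did, whereas Acta2 lay below them. Its part in those results was not tested. The median level of the 10 markers was 5.25 in CHIR/XAV EpiSCs, 5.1 in FGF2/activin EpiSCs and 5.07 in ESCs. In CHIR/XAV against FGF2/activin EpiSCs 3 rose and 3 fell, where 20.5% of all genes rose and 21.1% fell. Against ESCs, 4 of the 10 rose and 1 fell in FGF2/activin EpiSCs, where 27.8% of all genes rose and 33.5% fell. Notch3 rose most, by 1.98, and Synpo2 fell by 0.22. In CHIR/XAV EpiSCs 6 rose and 0 fell, where 24.7% of all genes rose and 22.1% fell. Of 11 fibroblast or feeder markers 5 lay below 5.28 in every group, and the summed signal was 472 to 511 in CHIR/XAV EpiSCs, 399 to 410 in FGF2/activin EpiSCs and 389 to 401 in ESCs. Against ESCs, 4 of the 11 rose and 2 fell in FGF2/activin EpiSCs, where 27.8% of all genes rose and 33.5% fell. In CHIR/XAV EpiSCs 1 rose and 2 fell, where 24.7% of all genes rose and 22.1% fell. The risers in FGF2/activin EpiSCs were Twist2 (0.43), Postn (0.36), Thy1 (0.25) and Col1a2 (0.18), and Pdgfrb fell by 0.72 and Pdgfra by 0.25. Of these, Postn and Pdgfra lay below 5.28 in every group. The 4 risers moved with the contractile genes there, and their part in those results was not tested. The fibroblast collagens Col1a1 and Col1a2 were at 6.05 and 5.68 in FGF2/activin EpiSCs against 5.94 and 5.50 in ESCs, and Lum and Dcn were near 4.3 to 4.5 in all groups. Thy1 was the brightest of that list, at 7.21 in CHIR/XAV EpiSCs, where Acta2 was lowest. The 10 striated muscle markers summed to 376 to 408 in CHIR/XAV EpiSCs, 336 to 371 in FGF2/activin EpiSCs and 440 to 453 in ESCs. Of these 4 lay below 5.28 in every group and the highest mean was 5.94. In FGF2/activin EpiSCs against ESCs 0 of the 10 rose and 5 fell by limma, where 27.8% of all genes rose and 33.5% fell. Myh7 was 0.16 higher, at an unadjusted p of 0.0307 (limma). The sarcomere genes Acta1 (2.61), Myl3 (1.74), Tnnt3 (1.15) and Tmod1 (1.03) rose beside Actc1. Their part in the level of Actc1 was not tested. The 10 early mesoderm markers summed to 426 to 471 in CHIR/XAV EpiSCs, 387 to 392 in FGF2/activin EpiSCs and 326 to 346 in ESCs, led by Tbx20 (6.99) in CHIR/XAV and Hand1 (6.30) in FGF2/activin EpiSCs. Of these 10 markers 5 lay below 5.28 in every group. Against ESCs, 3 rose and 4 fell in FGF2/activin EpiSCs, where 27.8% of all genes rose and 33.5% fell. In CHIR/XAV EpiSCs 3 rose and 2 fell, where 24.7% of all genes rose and 22.1% fell.

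**Figure D5:**
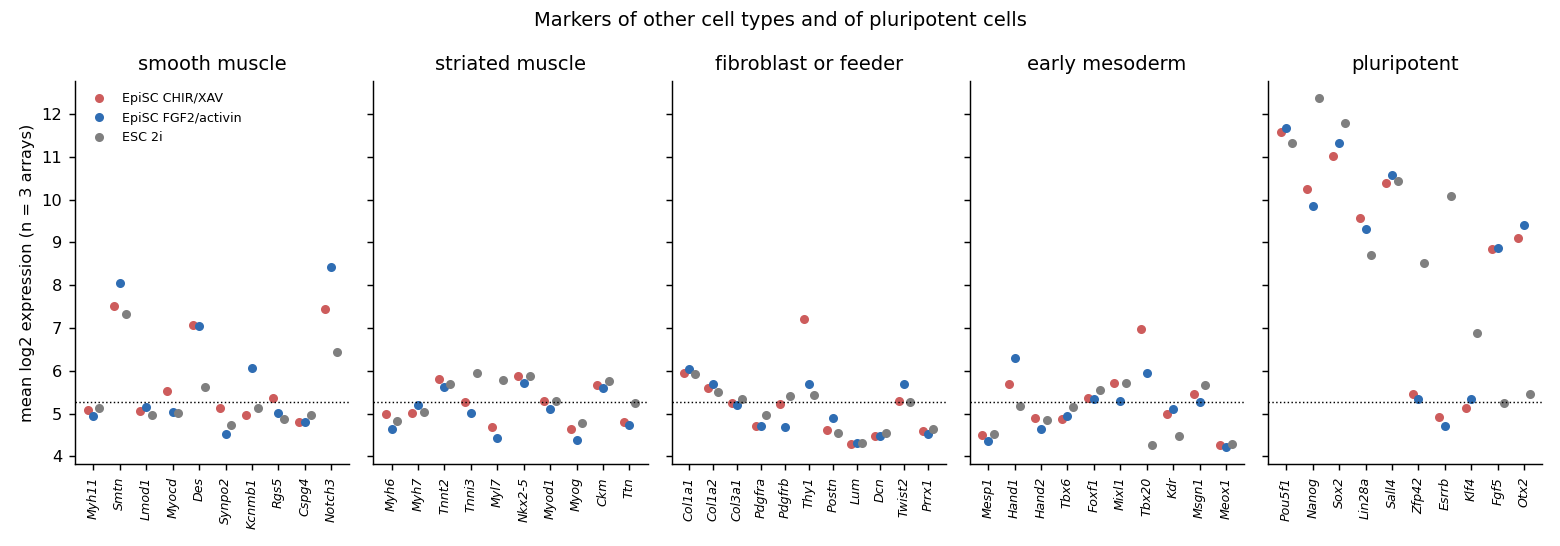
Mean log2 expression (vertical axis, n = 3 arrays per point) of markers of smooth muscle, striated muscle, fibroblasts or feeders, early mesoderm and pluripotent cells in the 3 groups, with a dotted line at 5.28, the level that divides the dimmest 40% of genes from the rest. Notch3, Smtn and Des lie above the line in every group, Thy1 reaches 7.21 in CHIR/XAV EpiSCs and Kcnmb1 6.06 in FGF2/activin EpiSCs, and Pou5f1 lies above 11 in all 3.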

How the data were processed

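Total RNA of 9 samples was hybridised to a 1-colour Affymetrix array (Mouse Gene 1.0 ST). The authors deposited log2 expression values, 1 per probe set and array, made with RMA in Partek per the submitters' processing notes, with array medians of 5.57 to 5.65. No version is recorded in those notes. Detection calls are not among the values analysed, which leaves low levels close to background uncertain. Of 35399 probe sets, 21789 had 1 gene symbol, 1621 several and 11989 none. Only the first kind was used, with the probe set of the highest mean over the arrays kept for each of 19938 genes. Symbols were updated through a RefSeq table of GRCm38.p6, in which 19856 genes matched.

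Groups came from the sample titles. The gene lists were tested in limma 3.58.1 (R 4.3.3) with all 9 arrays in 1 fit, with no covariate and no filter, and Benjamini-Hochberg adjustment over all genes. The fit was tested on simulated data. Of the 6 lists, 1 enters the counts over all lists but is not reported here on its own. The members and lists were chosen with earlier results of these data known. Named were all members, up to 3 called genes of the largest change per list and comparison whose arrays did not overlap, a panel of regulators and actins, the brightest markers and the 5 genes most like Acta2, Tagln and Actc1, leaving out predicted and clone names. Other genes named are Stambpl1, Fas and Sidt2 (neighbours), Amigo2 and Atf1 (ends of a chromosome 15 stretch), sex-linked genes, single markers, Tnnt3, Tmod1, Myl12b, Csrp2 and Tagln3. They were chosen after their values were seen. Alternatives were the mean of a gene's probe sets, a filter that drops the dimmest 40% of genes, variance estimates with trend or robust settings, array weights, fits of 2 groups at a time, quantile normalization, median centring, a block for the replicate number, fits without 1 array at a time, and a treat test against 1.5-fold.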

Additional observations from a re-analysis of the deposited data

Results flagged for a closer look

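Acta2 was lower in CHIR/XAV EpiSCs than in ESCs on all arrays, and its FGF2/activin arrays all lay above the ESC arrays, with a difference between CHIR/XAV and FGF2/activin EpiSCs of -3.45 log2 units. That difference was not tested, since the gene was chosen with these levels known.

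Among list genes named by change or in the panel, 4 were called in opposite directions in the EpiSC cultures against the same ESC arrays. For each, the difference itself was called by limma between CHIR/XAV and FGF2/activin EpiSCs. Tead1 was at -1.43 in CHIR/XAV and 0.28 in FGF2/activin EpiSCs against ESCs, a difference of -1.71 (adjusted p = 8.23e-10). Ppp1r12a, the targeting subunit of myosin phosphatase, was at -0.28 and 0.57, a difference of -0.84 (adjusted p = 6.33e-07), and Limk2, a cofilin kinase, at -0.35 and 0.43, a difference of -0.78 (adjusted p = 6.4e-07). Actn3 ran the other way, at 0.94 in CHIR/XAV and -0.40 in FGF2/activin EpiSCs, a difference of 1.34 (adjusted p = 2.33e-08). Synpo2, named as a marker, met the same conditions, at 0.40 in CHIR/XAV and -0.22 in FGF2/activin EpiSCs. Its difference was 0.62 (adjusted p = 4.99e-05, limma), and its means lay below 5.28 in every group.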

How the results depend on the processing

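Of 96 recomputed member differences 1 changed sign, that of Actg2 in CHIR/XAV EpiSCs against ESCs, whose arrays overlap (0.06, and -0.024 with 1 array left out). Another 2 moved by more than 1 SD between arrays, both under quantile normalization: Acta2 in FGF2/activin EpiSCs against ESCs to 2.31 and Cnn1 in CHIR/XAV against FGF2/activin EpiSCs to 0.64. The counts of called genes of the 6 lists (99 in CHIR/XAV EpiSCs against ESCs, 113 in FGF2/activin EpiSCs against ESCs and 92 in CHIR/XAV against FGF2/activin EpiSCs) stayed within 1.5 times under every alternative run but the treat test against 1.5-fold, which asks for a larger change. It called 35, 55 and 33 list genes, and 2241, 2726 and 1175 of all genes against 9320, 12218 and 8300. Over all genes the balance in FGF2/activin EpiSCs against ESCs turned with the scaling, with 5537 higher and 6681 lower as deposited. Median centring gave 6143 higher and 5006 lower, and quantile normalization 5309 higher and 5057 lower. The 6 lists had 79 higher and 34 lower, 87 and 29, and 81 and 36 under the same settings. With 1 array left out the list counts ranged from 90 to 97, 109 to 116 and 86 to 94. Of 76 differences of named list genes, 10 calls were lost, all under the treat test, and 9 recomputed values of genes without a call passed. Among named list genes signs turned for differences near 0: Mrtfb in FGF2/activin EpiSCs against ESCs went to 0.038 with median centring and to 0.006 with 1 array left out, and Mylk in CHIR/XAV EpiSCs against ESCs to -0.002 with array weights. With the replicate number as a block the list counts were 97, 111 and 93. Deviations of same-numbered arrays from their group means correlated between -0.07 and 0.24 across genes, and 7 of 18 arrays set against another group correlated best with their own number, so the numbers did not pair the arrays. Signal limits Actg2 in all groups and Tagln, Myl9 and Cnn1 in ESCs, which lie near the level of dim genes.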
